A study of Homo sapiens with 6 samples.

Results

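Collagens, laminins and matrix glycoproteins are the structural part of the extracellular matrix, and 41 human genes that encode them or the enzymes that hydroxylate collagen were looked up by gene symbol in the deposited array table, out of 19775 genes with a symbol of their own. A gene was represented by its brightest probe set over the 6 arrays. Of the 41 genes 40 were measured and LAMA3 was not analysed here. The cells were HepG2, a human hepatoblastoma line, transfected with an siRNA against HNF4A, a nuclear receptor that drives liver genes (siHNF4a), or with a control siRNA (siControl). Each siRNA was sampled at 0 h without TGF-beta and at 1.5 and 24 h with 3 ng/ml TGF-beta, on 1 Affymetrix array per combination and with no replicate. Treated arrays have no untreated array of the same time beside them here, and TGF-beta and hours in culture cannot be told apart. The labels name 1 cell line and 1 siRNA per arm, with no word on separate transfections. HNF4A's own level was not analysed here, so the knockdown is taken from the labels.

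Fibrillar collagens, type I above all, form the tensile fibres of interstitial matrix. Type IV collagen, laminins, nidogens and the proteoglycans perlecan and agrin build the basement membrane under epithelia, while fibronectin, fibrillin and their binding partners organise fibrils and hold growth factors, latent TGF-beta among them. TGF-beta is a textbook inducer of matrix genes through Smad transcription factors, and in liver its matrix response is known best from stellate cells and fibroblasts.

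Values are MAS5 signals, linear intensities whose trimmed mean was the same on each array. A floor of 12.9, the median over every signal in the table, replaced lower values. Differences are given in log2 units ± the standard error from limma, and "at least" marks a difference whose size is limited by a floored signal. Signals of different probe sets are not on a common scale, so levels of single genes are not ranked, and the sums of marker signals below only follow a list across arrays. Of 8 hepatocyte and hepatoblast markers 8 lay above the floor on every array, with albumin (ALB) at 8099 to 9727. Transthyretin (TTR) fell at 24 h (-0.54 ± 0.14) and with siHNF4a (-0.52 ± 0.12, lost without the 24 h pair at -0.38), and SERPINA1 rose at 24 h (0.34 ± 0.09, lost without the siControl 0 h array at 0.31). Of 8 fibroblast or stellate markers 1, ACTA2, lay above the floor on every array, COL3A1 and POSTN on none, and the summed signal was 381 (siHNF4a) and 479 (siControl) at 24 h against 389 and 449 at 0 h. Most of that sum was ACTA2, at 290 (siHNF4a) and 362 (siControl) at 24 h against 314 and 391.5 at 0 h. The sum therefore says little of the other markers of the list. PDGFRB of that list had 41.3, 12.7 and 47.9 at 0, 1.5 and 24 h in siHNF4a cells and 27.0, 31.8 and 51.4 in siControl cells. It was higher at 24 h than at 1.5 h (at least 1.29 ± 0.39, limma adjusted p = 0.0394) and did not pass against 0 h (0.57 ± 0.39). Of 5 endothelial markers 4 lay above the floor on no array, and the sum was 129 (siHNF4a) and 147 (siControl) at 24 h against 84.3 and 62.9 at 0 h. The fifth, PECAM1, rose by 1.01 ± 0.27 and was lost without the siControl 0 h array (0.54, adjusted p = 0.396). The blood marker PTPRC lay above the floor on no array, LYZ read 2208 to 2996, and CD14 rose at 24 h (1.39 ± 0.35) and fell with siHNF4a (-1.18 ± 0.29). HBB of that list read 28.8 (siHNF4a) and 19.8 (siControl) at 24 h against 33.9 and 34.8 at 0 h, and did not pass. The CD14 rise was lost without the siControl 0 h array (1.20, adjusted p = 0.0729) and its fall without the 24 h pair (-0.78, 0.267). By the labels every array is of 1 cell line, HepG2, and how these marker signals relate to the matrix values was not tested. As a check of the treatment, the Smad feedback gene SMAD7 rose by 1.17 ± 0.15 at 1.5 h (limma adjusted p = 0.00266). SKIL rose by 1.02 ± 0.13 and PMEPA1 by at least 3.29 ± 0.36 at 24 h. PMEPA1 differed between the arms, at 280 in siHNF4a and 75.3 in siControl cells at 24 h. It was higher with siHNF4a over the 3 times (at least 1.02 ± 0.29), though not called without the 1.5 h (1.15) or the 24 h pair (0.58). On the siControl 0 h array a control probe set named AFFX-HUMRGE read 8600, against 69.8 to 736.5 on the other 5 arrays, and calls that were lost without that array are named beside their values.

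Most of these genes had a mean signal above the floor in HepG2 cells, as 11921 of all 19775 genes did. Some lay not far above it, FBN1 for instance at 13.8 to 29.7. Above the floor on every array were 30 of the 40, 7 were above it on 1 to 5 arrays and 3 on none, and the 33 with a mean signal above the floor were tested. Signals were 7265 to 9526 for fibronectin (FN1), 4888 to 5695 for osteopontin (SPP1), 2991 to 6252 for TGFBI and 1273 to 3357 for the lysyl hydroxylase PLOD2. The 7 not tested were COL1A2 (2.4 to 19.1), COL5A1 (0.7 to 10.3), COL6A2 (4.5 to 16.9), COL4A1 (5.7 to 18.3), LAMA1 (1.1 to 8.6), LAMB3 (1.6 to 13.6) and NID2 (0.5 to 4.3).

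The comparison of 24 h with 0 h asked which matrix genes differed after a day with TGF-beta. Of the 33 tested 11 rose, none fell and 22 did not pass, where 7.22% of all 11921 genes tested rose and 7.82% fell. The 11 were the type I collagen chain COL1A1, the type IV chain COL4A2, the glycoproteins and proteoglycans LTBP2, BGN, MATN3, SPARC, TGFBI and FN1, and the collagen hydroxylases PLOD2, P4HA2 and P4HA1. Each lay above the floor on both 0 h arrays. The median difference of the 33 was 0.30, against -0.03 over all genes tested. The members were chosen with earlier results of these data known, so these contrasts with all genes are no independent test. More cells that make a transcript and more transcript per cell cannot be told apart in such bulk RNA. Without the siControl 0 h array 9 of the 11 were called, and FN1 (0.34, limma adjusted p = 0.106) and P4HA2 (0.48, 0.112) were lost. Without limma's intensity trend 5 were called, COL1A1, COL4A2, LTBP2, MATN3 and PLOD2.

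**Figure D1:**
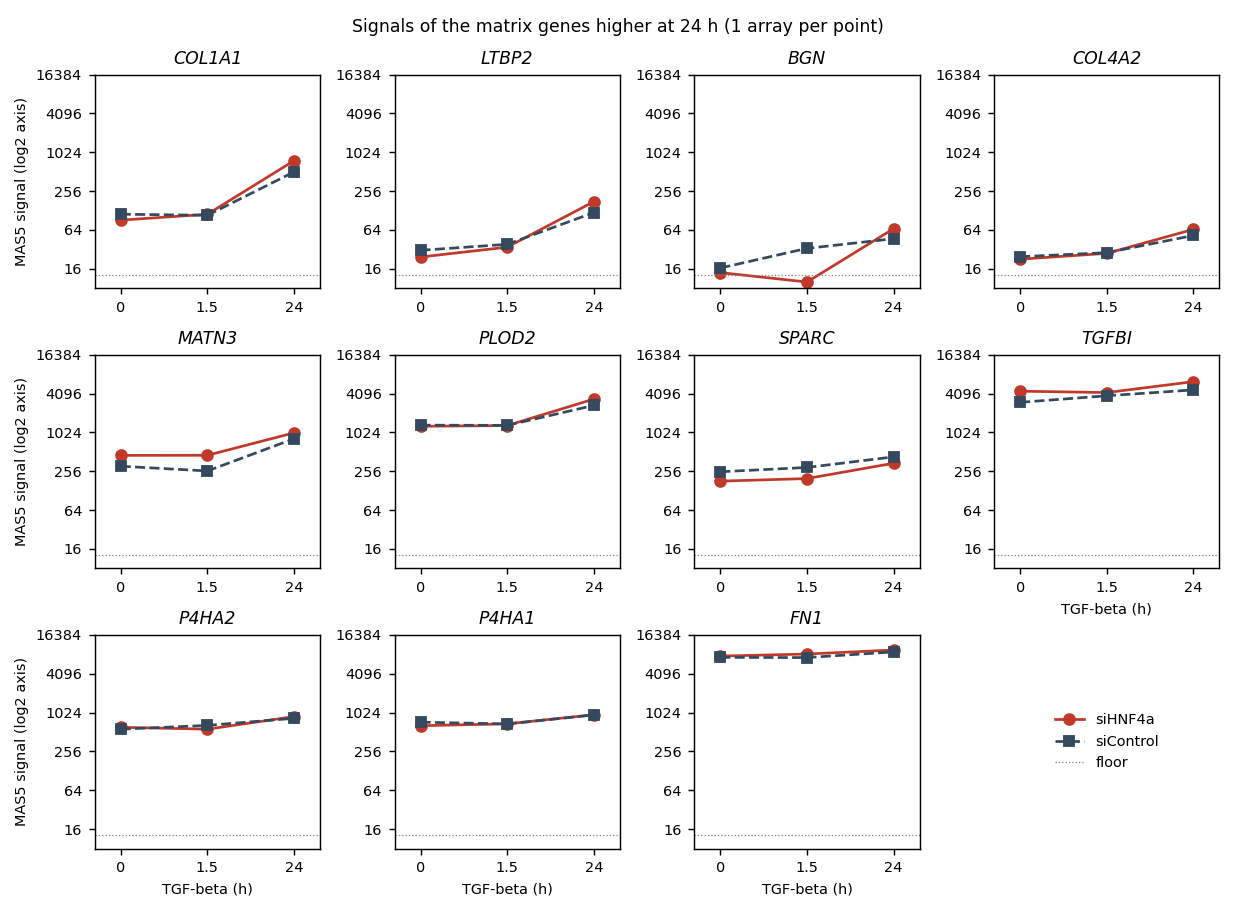
MAS5 signal (log2 axis) against hours with TGF-beta for the 11 matrix genes that rose at 24 h, 1 array per point, with siHNF4a as red circles, siControl as dark squares and the floor of 12.9 as a dotted line. Signals at 24 h lay above those at 0 h in both arms, while signals at 1.5 h stayed near those at 0 h except for BGN, which read 10.0 in siHNF4a and 33.2 in siControl cells.

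Among the 6 fibrillar collagens 1 of the 4 tested rose at 24 h, where 7.22% of all genes tested did. COL1A1, which encodes the alpha 1 chain of type I collagen, gave signals of 90.9, 112 and 758 at 0, 1.5 and 24 h in siHNF4a cells, against 112, 108 and 508 in siControl cells. Both 24 h arrays stood far above the other 4, which did not separate by siRNA. The difference at 24 h was 2.62 ± 0.21 (limma adjusted p = 3.7e-06), made of 3.06 in siHNF4a and 2.18 in siControl cells. COL1A2, the alpha 2 chain of the same trimer, read 19.1, 9.5 and 10.2 in siHNF4a cells and 14.8, 17.5 and 2.4 in siControl cells and lay above the floor on 3 of 6 arrays. COL27A1, a fibrillar collagen of cartilage, had 0.17 ± 0.17 and COL2A1, the main cartilage collagen, had -0.20 ± 0.27, and neither passed. COL5A2, a chain of the type V collagen that nucleates type I fibrils, had -0.41 ± 0.42 and did not pass. Its siHNF4a 0 h (10.4) and siControl 24 h (11.2) signals, which enter that value, were set to the floor.

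None of the 4 tested among the other collagens passed at 24 h. COL7A1, which forms anchoring fibrils under epithelia, had signals of 19.4, 21.7 and 52.0 at 0, 1.5 and 24 h in siHNF4a cells and 26.9, 24.1 and 34.5 in siControl cells. The 24 h array was the highest in each arm, and the difference of 0.89 ± 0.34 missed the threshold (limma adjusted p = 0.094). The type IX chain COL9A2 had 0.35 ± 0.26 and the type VI chain COL6A1 had 0.28 ± 0.30. COL12A1, which coats collagen fibrils, had -0.82 ± 0.40 with its siControl 24 h signal at the floor.

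Of 11 basement membrane genes tested 1 rose and 10 did not pass at 24 h, a share of 9.09% that is near the 7.22% of all genes tested. The gene that rose was COL4A2, the alpha 2 chain of type IV collagen, at 22.6, 27.8 and 65.5 in siHNF4a cells over 0, 1.5 and 24 h, against 24.7, 28.5 and 52.6 in siControl cells. Both 24 h signals exceeded the other 4, and the difference was 1.31 ± 0.30 (limma adjusted p = 0.00783). COL4A1, whose alpha 1 chain joins the alpha 2 chain in the main type IV trimer, read 5.7, 6.5 and 9.1 in siHNF4a cells and 18.3, 9.4 and 9.8 in siControl cells, above the floor on 1 array. RefSeq places the starts of COL4A1 and COL4A2 back to back on chromosome 13, with 126 bases between them (chr13:110307158-110307283, GRCh38.p14, plus strand, COL4A2 to the right). The stretch is shown because both genes share it, and capitals mark GGGCGG, a GC box of the Sp1 type, on either strand.
COL4A1-COL4A2 interval: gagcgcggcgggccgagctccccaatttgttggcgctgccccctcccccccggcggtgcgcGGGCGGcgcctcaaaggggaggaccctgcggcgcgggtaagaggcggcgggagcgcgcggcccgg
It held 1 GC box and no CAGAC, the Smad box, on either strand.

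The laminin chains that were tested did not pass at 24 h. LAMB1, a beta chain, had signals of 775, 740 and 999 at 0, 1.5 and 24 h in siHNF4a cells and 560.5, 733 and 712.5 in siControl cells, with a difference of 0.36 ± 0.15 (limma adjusted p = 0.12). LAMA5, an alpha chain of epithelial laminins, read 142, 109 and 284.5 in siHNF4a cells and 173, 224 and 200 in siControl cells, so its 24 h array was the highest in siHNF4a cells only. Its difference of 0.61 ± 0.27 did not pass (adjusted p = 0.161). LAMC1, the gamma chain of most laminins, had -0.20 ± 0.13 and LAMB2 had 0.03 ± 0.24. Among the linkers, nidogen (NID1) had -0.09 ± 0.15, perlecan (HSPG2) -0.03 ± 0.25 and agrin (AGRN) -0.16 ± 0.27. COL18A1, the source of endostatin, had 0.42 ± 0.20, and the X-linked type IV chains COL4A5 and COL4A6 had 0.23 ± 0.17 and 0.18 ± 0.21.

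**Figure D2:**
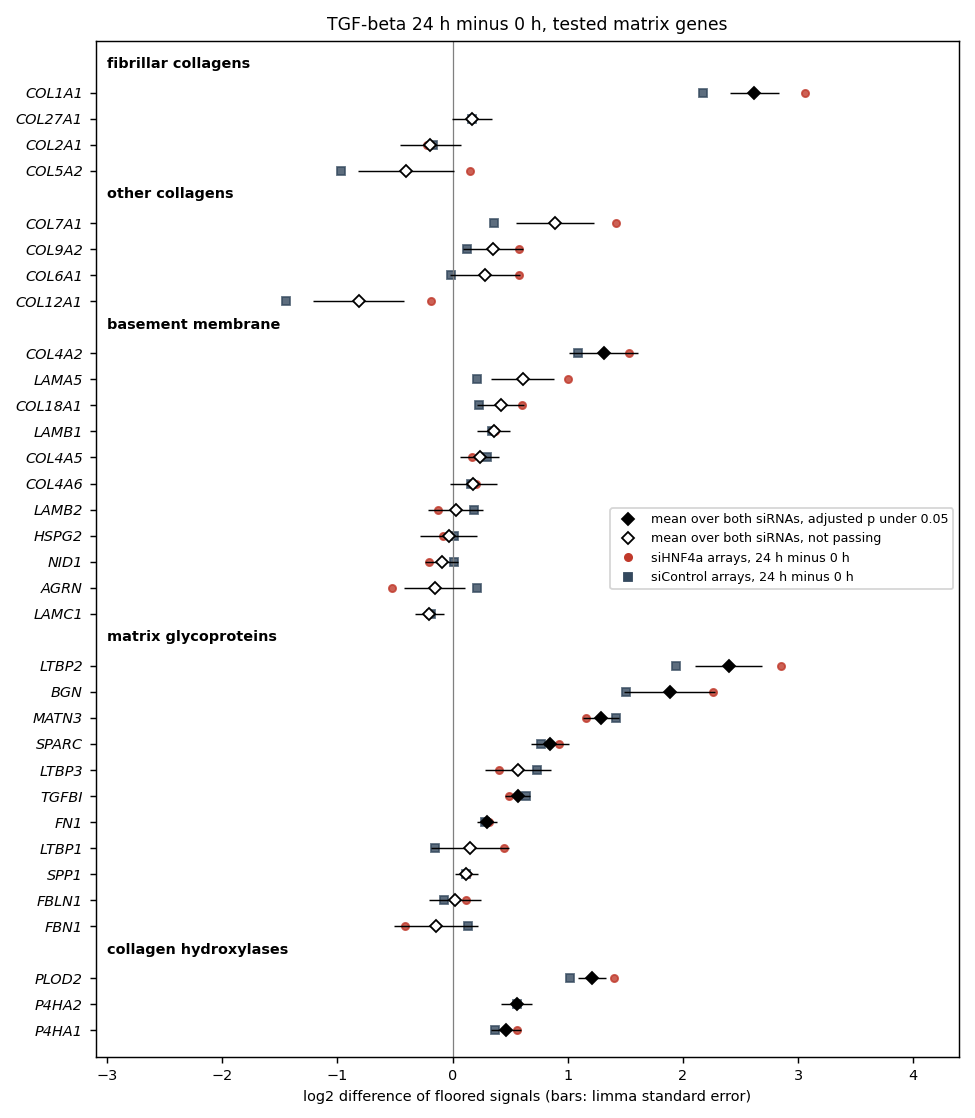
Log2 difference of floored signals, 24 h minus 0 h, for the 33 tested matrix genes by group, as the mean over both siRNAs with limma's standard error (diamonds, filled where the adjusted p is under 0.05) and as the single-array differences in siHNF4a (red circles) and siControl cells (dark squares). The 11 filled diamonds lie between 0.30 and 2.62, and 1 of them is a basement membrane gene.

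Of 11 matrix glycoproteins and proteoglycans tested 6 rose at 24 h (54.5%, against 7.22% of all genes tested), 5 did not pass and none fell. LTBP2, which binds fibrillin microfibrils, gave 24.4, 34.7 and 176 at 0, 1.5 and 24 h in siHNF4a cells, against 31.0, 38.4 and 119 in siControl cells. Its difference was 2.40 ± 0.29 (limma adjusted p = 7.2e-05), with the 24 h arrays clear of the others. The other latent TGF-beta binding proteins did not pass, LTBP3 at 0.57 ± 0.29 and LTBP1 at 0.15 ± 0.34, and fibrillin 1 (FBN1) had -0.14 ± 0.37. Biglycan (BGN), a small leucine-rich proteoglycan, read 14.0, 10.0 and 67.1 in siHNF4a cells and 16.5, 33.2 and 46.9 in siControl cells. It rose by 1.88 ± 0.40 (adjusted p = 0.00509), although its siControl signal at 1.5 h already lay between those at 0 and 24 h. MATN3, a matrilin that links fibrils in cartilage, had signals of 451, 452 and 1008 in siHNF4a cells and 306, 259 and 817 in siControl cells. Its difference was 1.29 ± 0.15 (adjusted p = 6.9e-05).

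SPARC, a calcium-binding protein that escorts collagen, gave 180, 197 and 341 at 0, 1.5 and 24 h in siHNF4a cells and 251, 293 and 428 in siControl cells. It rose by 0.84 ± 0.17 at 24 h (limma adjusted p = 0.00323), and siHNF4a cells had the lower signal at each time. TGFBI, a secreted ligand of integrins named for its induction by TGF-beta, gave 4453, 4240 and 6252 in siHNF4a cells and 2991, 3779 and 4658 in siControl cells. It rose by 0.56 ± 0.11 (adjusted p = 0.00284). FN1, which encodes fibronectin, gave 7663, 8247 and 9526 in siHNF4a cells and 7328, 7265 and 8902 in siControl cells, close to the highest signals of any probe set, 11258 to 13116. The FN1 difference was 0.30 ± 0.09 (adjusted p = 0.0329), and it did not pass after quantile normalization (0.15) or scaling to the median (0.30). SPP1, or osteopontin, had 0.12 ± 0.10 and FBLN1, or fibulin 1, had 0.02 ± 0.22.

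All 3 collagen hydroxylases rose at 24 h, where 7.22% of all genes tested did. PLOD2, which hydroxylates the lysines of collagen ends and so sets the kind of cross-link, gave 1273, 1308 and 3357 at 0, 1.5 and 24 h in siHNF4a cells, against 1326, 1316 and 2681 in siControl cells. Its difference was 1.21 ± 0.12 (limma adjusted p = 1.9e-05), the smallest standard error among the genes that rose by over 1. P4HA2, a catalytic subunit of the prolyl 4-hydroxylase that stabilises the triple helix, gave 605, 565 and 885.5 in siHNF4a cells and 565, 646 and 833 in siControl cells. It rose by 0.56 ± 0.14 (adjusted p = 0.0129). P4HA1, the other main catalytic subunit, gave 640, 683.5 and 946 in siHNF4a cells and 726, 681 and 939 in siControl cells, a rise of 0.47 ± 0.13 (adjusted p = 0.0247).

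The promoters of LTBP2 (chr14:74612238-74612487, minus strand), BGN (chrX:153494730-153494979, plus strand), MATN3 (chr2:20012669-20012918, minus strand) and PLOD2 (chr3:146161185-146161434, minus strand) are shown because these genes rose by over 1 on the log2 scale, as did COL4A2, shown above, and COL1A1, for which no sequence is shown. Each is the 250 bases before the start in RefSeq (GRCh38.p14), with capitals for GGGCGG and CAGAC on either strand.
LTBP2: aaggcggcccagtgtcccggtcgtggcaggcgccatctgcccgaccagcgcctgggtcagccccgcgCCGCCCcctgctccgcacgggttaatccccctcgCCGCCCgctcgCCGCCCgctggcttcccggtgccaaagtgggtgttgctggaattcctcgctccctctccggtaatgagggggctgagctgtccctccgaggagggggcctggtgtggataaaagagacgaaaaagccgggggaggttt
BGN: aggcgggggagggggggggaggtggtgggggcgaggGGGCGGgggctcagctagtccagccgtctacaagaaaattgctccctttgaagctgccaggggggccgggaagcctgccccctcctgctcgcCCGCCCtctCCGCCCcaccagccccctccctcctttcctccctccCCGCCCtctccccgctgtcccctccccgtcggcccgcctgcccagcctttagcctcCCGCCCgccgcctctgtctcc
MATN3: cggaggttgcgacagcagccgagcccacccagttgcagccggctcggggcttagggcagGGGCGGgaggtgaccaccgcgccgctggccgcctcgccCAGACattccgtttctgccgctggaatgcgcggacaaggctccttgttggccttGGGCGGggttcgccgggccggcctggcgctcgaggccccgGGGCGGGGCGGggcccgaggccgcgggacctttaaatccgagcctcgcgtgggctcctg
PLOD2: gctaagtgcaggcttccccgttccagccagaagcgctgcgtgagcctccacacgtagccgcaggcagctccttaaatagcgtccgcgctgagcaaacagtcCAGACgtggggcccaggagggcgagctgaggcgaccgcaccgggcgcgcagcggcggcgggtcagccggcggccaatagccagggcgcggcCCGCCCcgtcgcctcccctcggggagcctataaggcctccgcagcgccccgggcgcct
GC boxes numbered 3 in LTBP2, 5 in BGN, 4 in MATN3 (of which a pair overlaps) and 1 in PLOD2, and CAGAC occurred 1 time each in MATN3 and PLOD2. Windows of 300 bases, which add 50 bases past the start, were found for 33 of the measured members, 41 windows in all. GGGCGG stood in 31 of them and CAGAC in 22, where 45.0% and 45.3% of all 35116 promoter windows held them. The AP-1 type site TGANTCA stood in 1 window (7.71% of all) and AAGTCCA, the core of the HNF4 type site, in 0 (3.39% of all). Of 10 windows of genes that rose at 24 h, 7 held GGGCGG and 6 held CAGAC. These are matches of letters in a window and say nothing of binding.

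A gene's other probe sets showed how far the size of a rise rests on the one used. The 11 genes had 15 other probe sets with a mean signal above the floor, and 14 of these were higher at 24 h in both arms. For COL1A1 a further probe set read 144 at 24 h and 37.1 at 0 h in siHNF4a cells, and 86.3 and 27.1 in siControl cells, a mean difference of 1.81. Another had 69.7 at 24 h and 38.8 at 0 h in siHNF4a cells, and 74.9 and 74.8 in siControl cells, a mean of 0.42. The mean over all 5 COL1A1 probe sets, a probe set under the floor on every array (1.6 to 11.7) among them, rose by 1.05 and still passed. FN1 was the reverse case, since its 4 brightest probe sets had mean differences of 0.22 to 0.34 and 3 dimmer ones had 0.82 to 0.98. The other PLOD2 probe set had 1.49, while a dimmer P4HA2 probe set had 0.11. The mean of each gene's probe sets had 0.22 for P4HA2 and 0.23 for P4HA1 and did not pass. Those means take in a P4HA2 probe set (0.7 to 4.5) and a P4HA1 probe set (0.2 to 4.0) under the floor on every array. The floor fixes the difference of such a probe set at 0, so it tells nothing of a rise. Other probe sets gave 1.31 for LTBP2, 1.01 for COL4A2, 0.76 for SPARC and 1.58 and 0.04 for BGN.

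**Figure D3:**
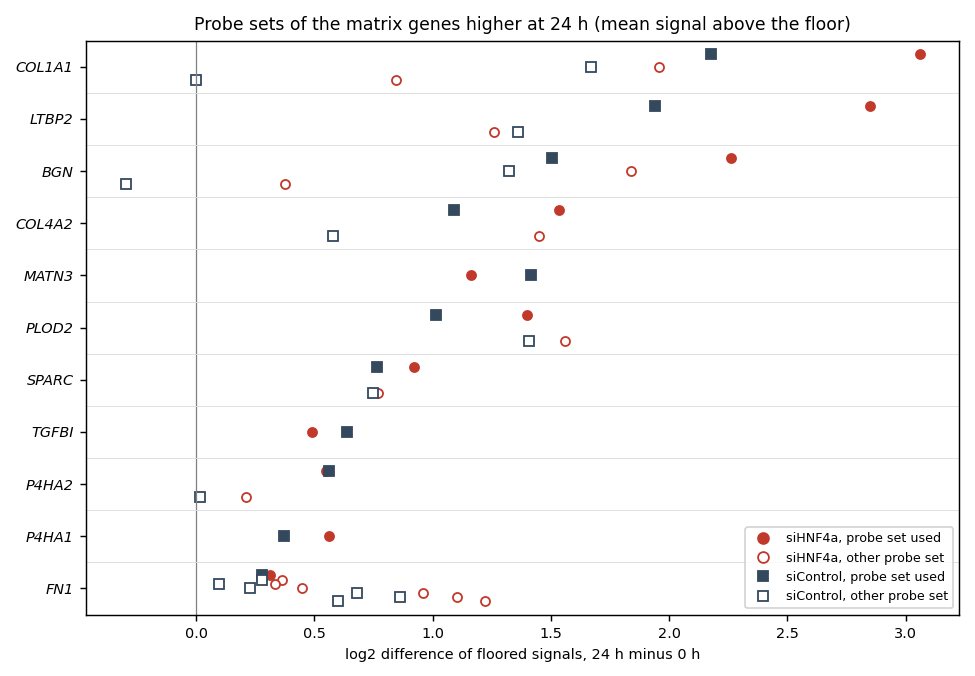
Log2 difference of floored signals, 24 h minus 0 h, for every probe set with a mean above the floor of the 11 genes that rose, with siHNF4a as red circles and siControl as dark squares, filled for the probe set used. The COL1A1 probe sets spread from 0.00 to 3.06, and the open FN1 points from 0.10 to 1.22.

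Between single arrays at least 2-fold differences at 24 h, a mark of size with no test, were reached by 8 tested genes in siHNF4a cells and 6 in siControl cells on the higher side. Over all genes tested 4.5% and 3.11% did so. COL1A1, LTBP2, BGN, COL4A2, MATN3 and PLOD2 were in both sets, and COL7A1 (1.42 in siHNF4a, 0.36 in siControl) and LAMA5 (1.01 and 0.21) in the first. On the lower side 0 of the 33 reached it in siHNF4a cells and COL12A1 did in siControl cells, where 4.61% and 2.6% of all genes did. COL12A1 had 21.4 at 24 h and 24.3 at 0 h in siHNF4a cells, and 10.1 and 35.2 in siControl cells. COL1A1 was 8.34-fold higher at 24 h in siHNF4a cells and 4.52-fold higher in siControl cells.

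The comparison of 1.5 h with 0 h asked about early responses. In limma 0 of the 33 tested genes passed, where 0.0839% of all genes tested rose and 0.0168% fell (0.101% in all), and 1 had an unadjusted p under 0.05. That gene was the basement membrane collagen COL18A1, at 0.47 ± 0.20, with signals of 146 and 183 at 0 and 1.5 h in siHNF4a cells and 135 and 207 in siControl cells. Differences of the 33 ran from -0.77 (COL12A1, floored in siHNF4a cells at 1.5 h) to 0.47, with a median of 0.01. COL1A1 had 0.12 ± 0.21 and PLOD2 0.01 ± 0.12 at 1.5 h. Between single arrays 0 of the 33 were 2-fold higher or lower in siHNF4a cells (0.537% and 1.47% of all genes), and BGN alone was 2-fold higher in siControl cells (0.973% higher and 0.721% lower over all genes). With the 1.5 h arrays in place of 0 h as the baseline, 10 of the 11 genes were higher at 24 h and none of the 33 was lower, where 6.4% of all genes were higher and 7.01% lower (13.4% in all). FN1 was the gene that did not pass so (0.25 ± 0.09, limma adjusted p = 0.0759), and both comparisons share the 24 h arrays.

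The siRNA comparison asked whether these genes depend on HNF4A. Over the 3 times MATN3 and TGFBI rose and SPARC fell with siHNF4a, and 30 of 33 did not pass, where 3.9% of all genes tested rose and 4.16% fell (8.06% in all). Scaling arrays to their median turned those 465 higher and 496 lower genes into 558 and 385. MATN3 and TGFBI passed there too, and SPARC did not (-0.41). MATN3 was 0.56 ± 0.13 higher (limma adjusted p = 0.013), with single-array differences of 0.56, 0.81 and 0.30 at 0, 1.5 and 24 h. In the signals given above siHNF4a cells were the higher at each time. Without the 1.5 h pair of arrays it had 0.43 (adjusted p = 0.0848) and without the 24 h pair 0.68 (0.0808), and did not pass. TGFBI was 0.39 ± 0.09 higher (0.0137), by 0.57, 0.17 and 0.42. Without the siControl 0 h array it was lost (0.30, adjusted p = 0.094), as it was without the 0 h pair (0.30, 0.0953) and the 24 h pair (0.37, 0.193).

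SPARC was -0.46 ± 0.13 with siHNF4a (limma adjusted p = 0.0496), and lower by 0.48, 0.57 and 0.33 at 0, 1.5 and 24 h. It lay at the threshold and was lost without the siControl 0 h array (-0.45, 0.155) and without the pair of 0 h (-0.45, 0.136), of 1.5 h (-0.41, 0.149) or of 24 h (-0.53, 0.214). The dimmer SPARC probe set had 0.21. None of the fibrillar collagens, other collagens, basement membrane genes or hydroxylases passed over the 3 times. AGRN was the highest of these at 0.63 ± 0.22 (adjusted p = 0.0959), with signals of 187, 127 and 130 at 0, 1.5 and 24 h in siHNF4a cells and 76.2, 125 and 88.2 in siControl cells. Its 0 h arrays differed by 1.30 and its 1.5 h arrays by 0.02. LAMB1 had 0.32 ± 0.12 (0.116), and without the 1.5 h pair AGRN (0.93) and LAMB1 (0.48) were called. COL1A1 had 0.11 ± 0.17 and PLOD2 0.09 ± 0.10. Between single arrays AGRN was 2-fold higher at 0 h (1.47% of all genes higher, 1.63% lower), BGN and LAMA5 were 2-fold lower at 1.5 h (1.54% higher, 3.26% lower) and FBN1 was 2-fold lower at 24 h (2.23% higher, 3.05% lower).

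**Figure D4:**
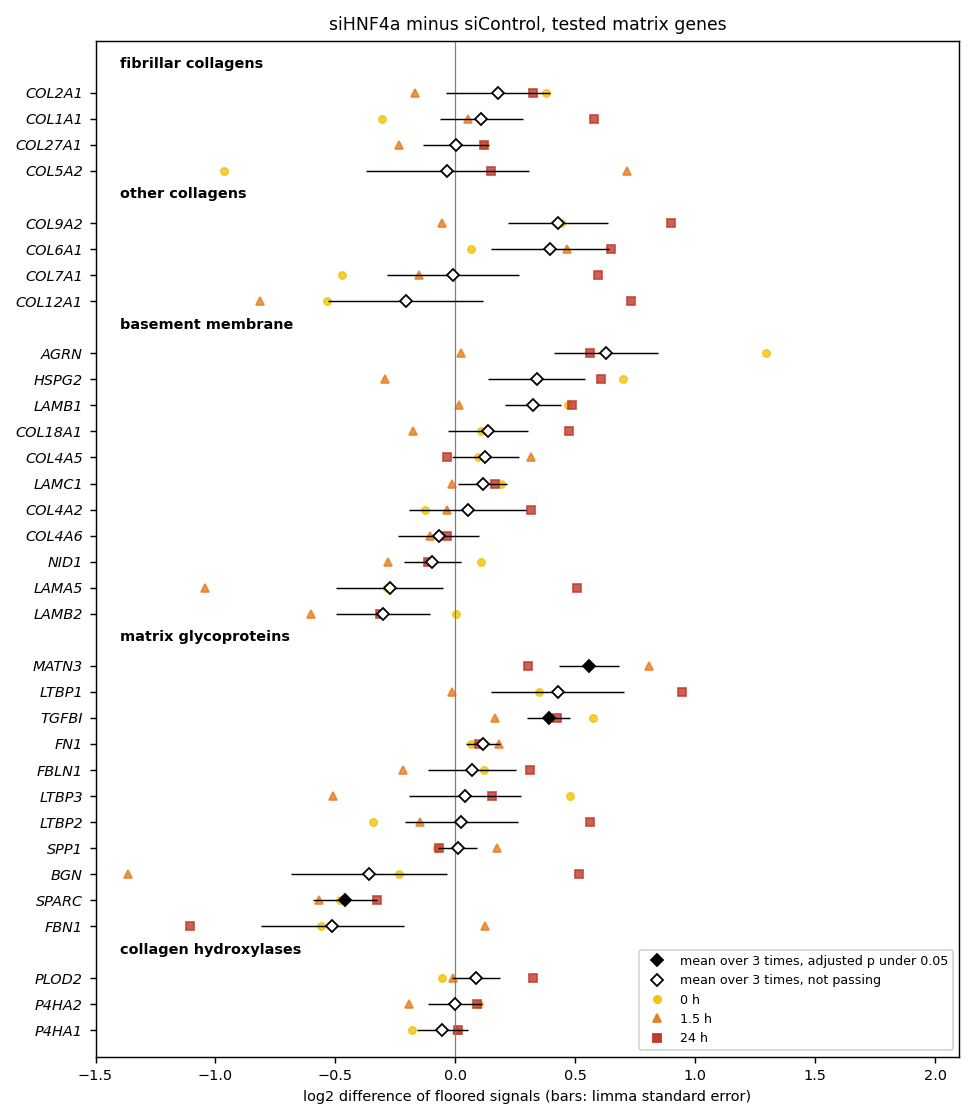
Log2 difference of floored signals, siHNF4a minus siControl, for the 33 tested matrix genes by group, as the mean over the 3 times with limma's standard error (diamonds, filled where the adjusted p is under 0.05) and at 0 h (yellow circles), 1.5 h (orange triangles) and 24 h (red squares). Means lie between -0.51 and 0.63, and the filled ones are MATN3 (0.56), TGFBI (0.39) and SPARC (-0.46).

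Whether the siRNA difference itself changed at 24 h was tested against its mean at 0 and 1.5 h. That fit had 1 residual degree of freedom, so a gene that did not pass may still have changed. In limma 0 of the 33 passed, as 0.0% of all genes did, and 2 of the 33 had an unadjusted p under 0.05, among 541 of all genes. The 2 were LAMA5 (1.17 ± 0.39, adjusted p = 0.999) and COL12A1 (at least 1.41 ± 0.53, 0.999). The siRNA difference at 24 h, less its mean at 0 and 1.5 h, was at least 1.32 ± 0.59 for BGN and 0.70 ± 0.34 for COL1A1. It was 0.81 ± 0.45 for LTBP2, 0.36 ± 0.20 for PLOD2 and -0.38 ± 0.26 for MATN3, and none of these genes passed.

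Related genes outside the 41 were counted by list. Of all genes tested 7.22% rose and 7.82% fell at 24 h, and 3.9% rose and 4.16% fell with siHNF4a. Of 23 other collagen genes 22 were measured, 4 were tested and none passed in the siRNA or either TGF-beta comparison with 0 h, COL3A1 (1.2 to 10.3) among those not tested. Among 15 other laminin and basement membrane genes 6 were tested, of which FRAS1 rose at 24 h (0.40 ± 0.12) and SMOC1 fell with siHNF4a (-0.94 ± 0.27). FRAS1 was lost without the siControl 0 h array (0.42, adjusted p = 0.129). Without the 1.5 h or the 24 h pair SMOC1 (-1.15 and -0.46) did not pass. A list of genes of collagen folding, modification and processing held 27 symbols, with old and new names of some genes both counted. Of these symbols 23 were measured and 16 were tested. TMEM38B fell at 24 h (-0.52 ± 0.15, and -0.48 with adjusted p = 0.176 without the siControl 0 h array) and FKBP10, a collagen chaperone, rose with siHNF4a (0.60 ± 0.16), though not without the 1.5 h (0.51) or the 24 h pair (0.58). None of those 16 rose at 24 h, where all 3 hydroxylases did, and that difference was not tested.

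Of 46 other glycoproteins and proteoglycans 21 were tested. At 24 h 6 rose and none fell, where 7.22% of all genes tested rose and 7.82% fell, and the median was 0.42 against -0.03 for all genes. This list too was chosen with earlier results of these data known, so the contrast with all genes is no independent test. CTHRC1, a secreted protein found with collagen in repair, gave 552, 613 and 2396 at 0, 1.5 and 24 h in siHNF4a cells and 509, 412 and 1561 in siControl cells, and rose by 1.87 ± 0.14. The large proteoglycan versican (VCAN) rose by 1.71 ± 0.16 and SRPX2 by 1.56 ± 0.36. The microfibril protein MFAP2 rose by 1.50 ± 0.42, the cartilage protein COMP by at least 1.29 ± 0.35 and thrombospondin 1 (THBS1) by 1.05 ± 0.13. COMP was lost when the siControl 0 h array was left out (1.04, limma adjusted p = 0.187). With siHNF4a 4 of the 21 rose and none fell, where 3.9% of all genes tested rose and 4.16% fell. The 4 were THBS1 (0.98 ± 0.10), the ephrin EFNA1 (0.52 ± 0.13), CTHRC1 (0.44 ± 0.12) and FGL1 (0.32 ± 0.09). THBS1 gave 959.5, 890 and 1944 in siHNF4a cells, against 463.5, 478 and 983 in siControl cells, higher at all 3 times. EFNA1 was lost without the siControl 0 h array and without the 0 h pair (0.48 in both), and CTHRC1, EFNA1 and FGL1 were lost without the 1.5 h pair (0.37, 0.41 and 0.23) and without the 24 h pair (0.34, 0.66 and 0.35).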

How the data were processed

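Per the labels, biotin-labelled cRNA from HepG2 total RNA was measured on 6 Affymetrix arrays. Intensity values were deposited as linear MAS5 signals, which the authors made with MAS5 5.0 and GCOS, per the submitters' processing notes. Each array's mean was 100.01 once 2% of values were trimmed from both ends. Array medians were 12.4 to 13.3. Genome build and scaling target are not given in the sources used here. Of 54675 probe sets 41097 had 1 gene symbol in the platform annotation, 1801 had several and 11777 none. Per gene the probe set with the highest mean signal was kept, signals under 12.9 were set to 12.9, log2 was taken, and the 11921 genes with a mean above 12.9 were tested.

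limma 3.58.1 in R 4.3.3 (lmFit, eBayes with an intensity trend) fitted siRNA and time to all 6 arrays, with Benjamini-Hochberg adjustment over all genes and a threshold of 0.05. The fit had 2 residual and 12.6 prior degrees of freedom, so the spread comes mostly from limma's prior, and disagreement of a difference between times or arms counts as error. A further fit added the siRNA effect at 24 h (1 residual degree of freedom). Both fits were tested on simulated data with known changes. Alternatives changed the scaling, floor, probe set, filter, trend and arrays used. Promoters came from RefSeq. Figures were made with Python 3.11.15 and matplotlib 3.10.9.

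Members and lists were chosen with earlier results of these data known. The rule for named genes covered all members, list members that passed with the largest differences, and TGF-beta response genes, of which SMAD7, SKIL and PMEPA1 are reported here. P-values measure the spread between these arrays only, which may be technical.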

Additional observations from a re-analysis of the deposited data

How the results depend on the processing

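The 24 h count of 11 genes that rose stayed between 8 and 11 under the other scalings, floors, a pseudocount, averaged probe sets, the 1.5 h baseline and without the 1.5 h pair or the siControl 0 h array. It was 6 of 19 tested without probe sets ending in _x_at or _s_at, 5 when limma used no trend and 0 with dim genes kept, where 19775 genes were tested. The siRNA count of 3 was 1 after quantile normalization and 1 without the siControl 0 h array, and 0 with the mean of probe sets, without the filter and without the trend. It ran from 0 to 3 when a pair of arrays was left out. SPARC was reversed, at 0.21 (adjusted p = 0.749), without probe sets ending in _x_at or _s_at, which leaves its dim probe set. No matrix gene was called at 1.5 h under any alternative run, and for the siRNA difference at 24 h LAMB3 was the 1 gene called, without the filter. LAMB3 lay above the floor on 1 array only, siHNF4a at 24 h (13.6). Its signals on the other arrays (1.6 to 12.6) were set to the floor, so that call rests on a single signal near the floor. Its 24 h minus 0 h difference in siHNF4a cells was 0.08. Without the filter the fit of the siRNA difference at 24 h had 0.663 prior degrees of freedom, against 8.4 in the main fit. The causes of the shifts between these settings were not tested.

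At 2-fold between single arrays the siRNA counts of 1, 2 and 1 at 0, 1.5 and 24 h became 3, 4 and 2 (floor at the 40th percentile) and 1, 1 and 0 (75th). The 24 h counts of 8 in siHNF4a and 7 in siControl became 8 and 8 at the 40th and 4 and 3 at the 75th, and the 1.5 h counts of 0 and 1 became 3 and 3, then 0 and 0. Over all genes the siRNA count of 961 was 227 with the mean of probe sets, 45 without the trend, 0 without the filter, 578 when the 1.5 h pair and 235 when the 24 h pair was left out. The 24 h count of 1793 was 806, 457 and 1 under the first 3 of these. The 1.5 h count of 12 was 0 under the same 3, 7 without _x_at and _s_at probe sets and 26 without the siControl 0 h array. The count for the siRNA difference at 24 h, 0, was 4 at the 40th percentile floor, 24 with the pseudocount and 639 without the filter.

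No paired analysis was possible because every group has 1 array and the labels give no replicate numbers. The siRNA difference at 24 h was not fitted with arrays left out, which leaves no residual degrees of freedom. Fits without the 0 h pair or the siControl 0 h array took their spread wholly from limma's prior. Signals near the floor of 12.9, as for BGN, COL4A1 and COL12A1, have poor precision on 1 array, and FN1 lies near the top of the scale.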
